A study of Homo sapiens with 4 samples.

Results

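The Nodal pathway genes described here were NODAL and GDF3, which encode ligands, TDGF1, which encodes the coreceptor Cripto and carries the current symbol CRIPTO, the antagonist genes LEFTY1, LEFTY2 and CER1, the type II activin receptor genes ACVR2A and ACVR2B, and FOXH1, which encodes a transcription partner of the SMAD proteins. They were chosen by name, though with earlier results of these data known. All 9 were measured, on 53 of the 218927 probesets that carry 1 gene symbol, among 18640 genes in all. RNA came from embryoid bodies of BG01V, an established line of human embryonic stem cells that carries an abnormal karyotype. In an embryoid body, stem cells aggregate and begin to differentiate. Of the 4 Affymetrix Human Gene 1.0 ST arrays, 2 came from embryoid bodies given 10 µM TBBD for 48 h, and 2 from embryoid bodies given the vehicle DMSO. Treatment generally fell between day 2 and day 4 of embryoid body formation. TBBD, another name for ellagic acid, is called in the study's title an inhibitor of methylation at an arginine of histone H3. Each group had a replicate 1 and a replicate 2. Whether replicates were separate cultures, and what a replicate number marks, is not stated in the labels, so each p-value covers only the spread among these arrays.

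Nodal and related ligands of the TGF-beta family bind type II activin receptors together with type I receptors. Nodal and GDF3 also need a coreceptor of the Cripto family. The receptors phosphorylate SMAD2 and SMAD3, which act in the nucleus with SMAD4 and with partners such as FOXH1. In human embryonic stem cells this pathway helps to maintain the undifferentiated state, and at higher activity it drives mesoderm and endoderm formation. LEFTY1 and LEFTY2 are both targets and feedback inhibitors of the pathway, and Cerberus, encoded by CER1, is a secreted protein that binds Nodal, BMP and Wnt ligands.

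Values are log2 RMA signals, averaged over the probesets of a gene. A probeset here is a few probes that target a short stretch of a gene, and since probes differ in brightness, levels are compared between arrays within a gene and not between genes. As a rough guide to dim signals, the 348 olfactory receptor genes, which act mainly in the nose, had a median signal of 5.40 and a 95th percentile of 5.66. Array medians over all probesets lay between 6.39 and 6.42. Stem cell markers were present. LIN28A, which encodes an RNA-binding protein of stem cells, stood at 10.0 and 9.08 with TBBD and at 9.96 and 9.49 with DMSO, and 0 of 9 pluripotent cell markers lay at or below the olfactory 95th percentile. Some markers of differentiated cells were brighter on the replicate 2 arrays. AFP, of visceral endoderm and fetal liver, stood at 8.22 with TBBD and 7.98 with DMSO on them, against 5.85 with TBBD and 5.50 with DMSO on the replicate 1 arrays. In RNA of whole embryoid bodies, fewer cells of a type and less RNA per cell cannot be told apart.

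TBBD arrays had lower mean signals than DMSO arrays for CER1 and TDGF1, by 1.91-fold and 1.78-fold, and for GDF3, by 1.36-fold, while LEFTY2 was 1.25-fold higher and NODAL differed by only 1.06-fold. None of these differences passed the test over all genes. By limma with Benjamini-Hochberg adjustment, 0 of 9 members had an adjusted p under 0.05, as did 0% of the 18640 genes, and the smallest adjusted p of any gene was 1. At an unadjusted p under 0.05 there was 1 member, GDF3, beside 0.746% of all genes, and GDF3 was lower, beside 0.349% of all genes. Members with a lower mean with TBBD numbered 7 of 9, beside 51.2% of all genes, and their median difference was -0.23 on the log2 scale, beside -0.0035 over all genes. A fold of at least 1.5 in the lower direction was met by 2 members, CER1 and TDGF1, beside 0.134% of all genes. Exact permutation of 2 arrays against 2 cannot give a two-sided p below 0.333.

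**Figure D1:**
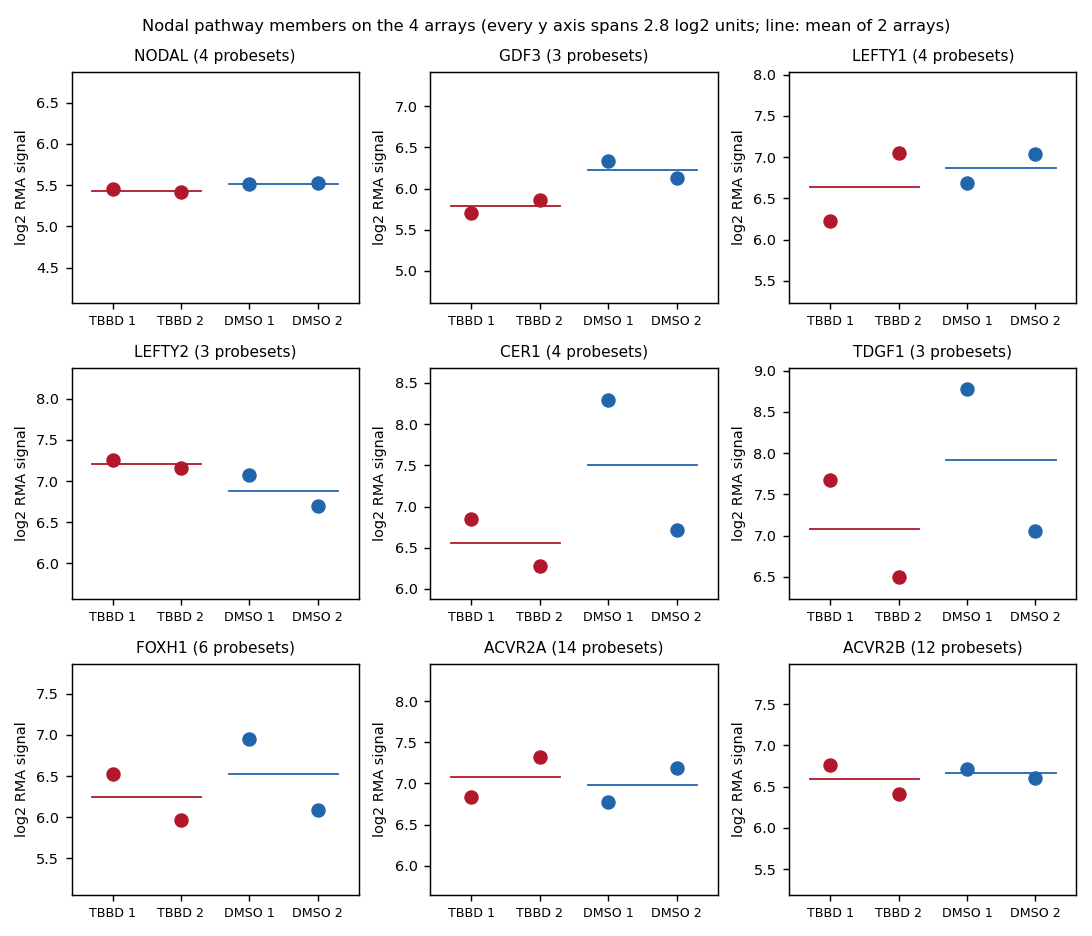
Log2 RMA signal of each member (y axis, 2.8 log2 units in every panel) on the TBBD 1, TBBD 2, DMSO 1 and DMSO 2 arrays (x axis), as the mean over its probesets, with a line at each group's mean. CER1 and TDGF1 are highest on DMSO 1, at 8.29 and 8.77, and lowest on TBBD 2, at 6.28 and 6.49, while NODAL stays between 5.42 and 5.53.

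Of the ligand genes, NODAL was dim and flat. It had log2 signals of 5.45 and 5.42 with TBBD in replicates 1 and 2, against 5.51 and 5.53 with DMSO. Both TBBD arrays lay below both DMSO arrays, which also held for 10.4% of all genes, but the whole range was 0.11. The difference was -0.09 ± 0.11 (SE, n = 2 arrays a group), with a 95% confidence interval from -0.37 to 0.20. NODAL was the only member whose level did not exceed the olfactory 95th percentile, and 68.4% of olfactory receptor genes lay below it, so whether it was expressed at a measurable level is unknown. Its 4 probesets did not move together. Probeset 7934159 stood at 6.02 and 5.77 with TBBD and at 6.87 and 6.24 with DMSO, whereas probeset 7934160 stood at 5.25 and 5.83 with TBBD and at 4.85 and 5.29 with DMSO.

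GDF3, a ligand gene of undifferentiated cells, was lower with TBBD in both replicates. Its log2 signals were 5.70 and 5.87 with TBBD, against 6.33 and 6.13 with DMSO. Both TBBD arrays lay below both DMSO arrays, which also held for 10.4% of all genes. The TBBD signals were dim, little above the olfactory 95th percentile of 5.66. The difference was -0.45 ± 0.14 (SE, n = 2), with a 95% confidence interval from -0.80 to -0.093, an unadjusted limma p of 0.0227 and an adjusted p of 1. Within replicate 1 the TBBD array stood at -0.63 relative to DMSO, and within replicate 2 at -0.26. The 3 probesets differed by between -0.70 and -0.033, so all were lower, but the third by little. All 4 fits that leave out an array gave GDF3 between -0.55 and -0.34, and without overlap between the groups the sign could not change.

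TDGF1 had the widest range of the members, 2.28 on the log2 scale. Its signals were 7.68 and 6.49 with TBBD, against 8.77 and 7.06 with DMSO. The TBBD array was lower within each number, by -1.10 in replicate 1 and -0.57 in replicate 2, yet the groups overlapped because replicate 2 lay far below replicate 1 in both treatments. The mean difference of -0.83 ± 0.67 (SE, n = 2) had a 95% confidence interval from -2.55 to 0.89 and did not pass the test. Each of the 3 probesets was lower with TBBD, the smallest difference being -0.67. The value rests on balanced numbers, since it was 0.025 without DMSO replicate 1 and -1.69 without DMSO replicate 2. Pluripotent cell markers, which GDF3 and TDGF1 accompany in undifferentiated cells, also had lower means with TBBD in 9 of 9 cases. Their median was -0.18, and 51.2% of all genes were lower. Limma called 0 of these 9 at an adjusted or unadjusted p under 0.05, and their part in the values of GDF3 and TDGF1 was not tested.

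CER1 showed the largest mean difference of the antagonist genes and of all members. Its signals were 6.85 and 6.28 with TBBD, against 8.29 and 6.71 with DMSO. DMSO replicate 1 stood well above the other 3 arrays. TBBD 1 lay below DMSO 1 by -1.44, a 2.70-fold difference, and TBBD 2 lay below DMSO 2 by -0.44, a 1.35-fold difference. The mean of -0.94 ± 0.54 (SE, n = 2) had a 95% confidence interval from -2.33 to 0.45. The 4 probesets were all lower with TBBD, 3 of them at between -1.19 and -1.15 and the fourth, 8160167, at -0.24. Without DMSO replicate 1 the difference was -0.15, and without DMSO replicate 2 it was -1.72.

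LEFTY1 and LEFTY2 lay on opposite sides of 0. LEFTY1 had signals of 6.22 and 7.04 with TBBD, against 6.68 and 7.04 with DMSO, so the TBBD array was lower by -0.46 in replicate 1 and equal, at 0.0025, in replicate 2. Its mean difference of -0.23 ± 0.30 (SE, n = 2) turned to 0.035 with the median over probesets and to 0.18 without TBBD replicate 1. Most of that difference came from probeset 7924666, at -0.89, while the others stood at -0.10, 0.024 and 0.046. The mean level of probeset 7924666, 4.40, lay below the 5th percentile of olfactory receptor genes, 5.18. LEFTY2 had signals of 7.25 and 7.16 with TBBD, against 7.07 and 6.69 with DMSO. Both TBBD arrays lay above both DMSO arrays, as for 10.5% of all genes, by 0.18 in replicate 1 and 0.47 in replicate 2. Its mean difference was 0.32 ± 0.17 (SE, n = 2), with a 95% confidence interval from -0.10 to 0.75, and did not pass the test. It was 0.51 without DMSO replicate 1 and 0.13 without DMSO replicate 2.

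The LEFTY probesets disagreed with each other. Most of the LEFTY2 difference came from probeset 7924684, which stood at 7.10 and 7.32 with TBBD and at 6.59 and 6.34 with DMSO, while probeset 7924685 differed by -0.030. In LEFTY1, probeset 7924665 stood at 8.66 and 10.6 with TBBD and at 8.51 and 11.0 with DMSO. It was brighter on both replicate 2 arrays by a mean of 2.24 log2 units, whereas the other 3 differed between the numbers by between -0.085 and 0.14. The genes encode closely related proteins, and RNA of either could bind probes of the other. The platform annotation gives each of these 7 probesets 1 symbol, and cross-binding was not tested.

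**Figure D2:**
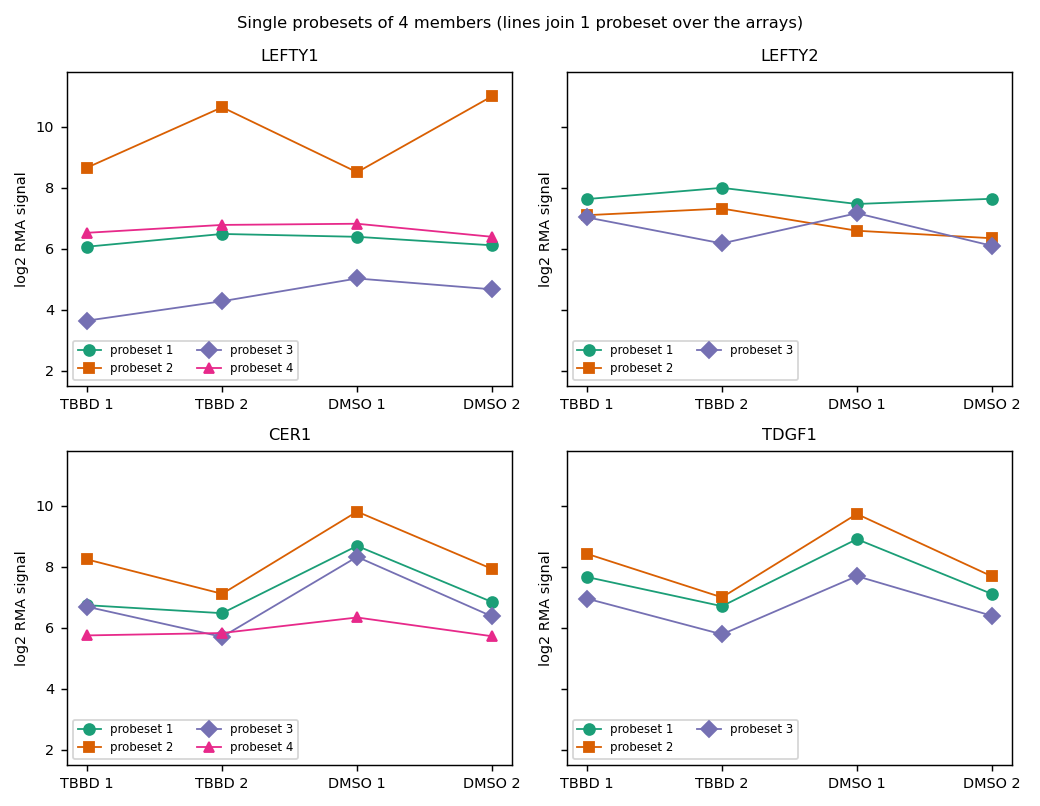
Log2 RMA signal (y axis) of the single probesets of LEFTY1, LEFTY2, CER1 and TDGF1 on the TBBD 1, TBBD 2, DMSO 1 and DMSO 2 arrays (x axis), numbered in the order of their identifiers, with lines joining the values of a probeset. The 3 TDGF1 probesets run in parallel, whereas probeset 2 of LEFTY1 is brighter on both replicate 2 arrays by a mean of 2.24 and the gene's other probesets are not.

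FOXH1, ACVR2A and ACVR2B did not pass the test either, and their groups overlapped. FOXH1 had signals of 6.53 and 5.97 with TBBD, against 6.95 and 6.09 with DMSO, and stood at -0.42 in replicate 1 and -0.12 in replicate 2. Its mean difference of -0.27 ± 0.34 (SE, n = 2) turned positive when either of a pair of arrays was left out, at 0.16 for DMSO replicate 1 and 0.010 for TBBD replicate 2. ACVR2A had signals of 6.84 and 7.33 with TBBD, against 6.77 and 7.19 with DMSO, a difference of 0.10 ± 0.23 (SE, n = 2). It turned to -0.11 with DMSO replicate 1 left out and to -0.15 with TBBD replicate 2 left out. ACVR2B had signals of 6.77 and 6.41 with TBBD, against 6.71 and 6.61 with DMSO, a difference of -0.07 ± 0.16 (SE, n = 2) that was 0.10 without TBBD replicate 2. Its difference was 0.050 in replicate 1 and -0.20 in replicate 2, and the change of sign was not tested.

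Compared within each number, 5 members were lower in both replicates, namely NODAL, GDF3, TDGF1, CER1 and FOXH1, beside 23% of all genes, and 2 were higher in both, LEFTY2 and ACVR2A, beside 21.5%. The TBBD minus DMSO difference was larger in size in replicate 1 for 5 members, GDF3, LEFTY1, CER1, TDGF1 and FOXH1, beside 54.5% of all genes. For CER1 the gap between the numbers was 1.00 log2 units, for TDGF1 0.53, for LEFTY1 0.46 and for GDF3 0.37. Each rests on 1 array against 1 in each number, so it has no test. With the median over probesets, NODAL was instead higher in both replicates, at 0.16 and 0.075. By that measure LEFTY2 was lower in replicate 1, at -0.065, and ACVR2B was lower in both, at -0.044 and -0.38.

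**Figure D3:**
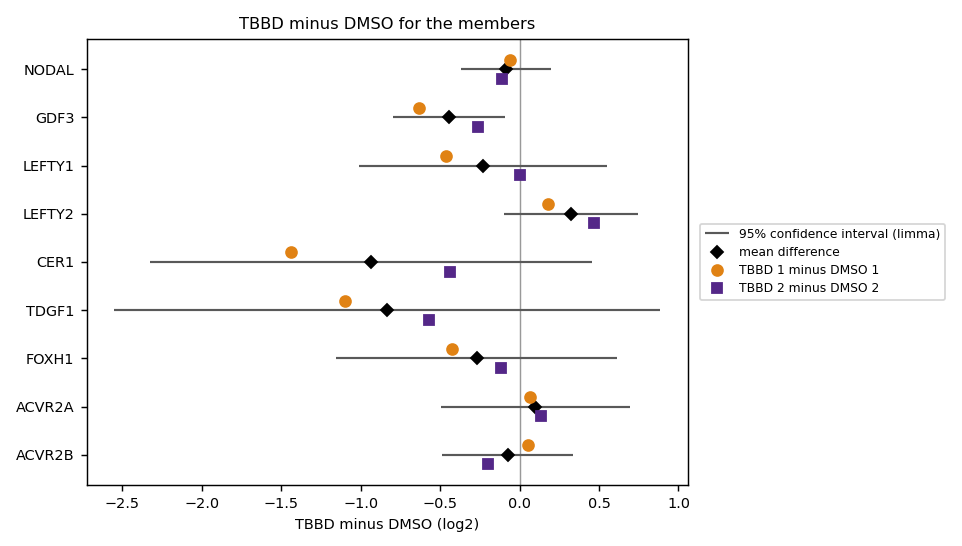
TBBD minus DMSO log2 difference (x axis) for each member (y axis), as the mean with its 95% confidence interval from limma, and within replicate 1 (circles) and replicate 2 (squares). CER1 and TDGF1 stand lowest in both numbers, and of the intervals only that of GDF3, from -0.80 to -0.093, does not cross 0. These intervals come from the fit with the group as the only term. With replicate number as a block, those of CER1, TDGF1 and LEFTY2 do not cross 0 either, at a limma adjusted p of 0.99971.

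The upstream sequences of the 3 members that stood lowest with TBBD are shown, a choice that rests on those values. A link between sequence matches and the differences was not tested. Each is the 250 bases before an annotated gene start, taken from RefSeq in build GRCh38.p14 and written 5′ to 3′. RefSeq lists a pair of starts for TDGF1. Capitals mark matches to CAGAC, the core of the SMAD binding element, and to AATACACA. Together with AATCCACA, that sequence is a known form of the FOXH1 recognition site. Both strands were searched.
CER1, chr9:14722734-14722983, minus strand: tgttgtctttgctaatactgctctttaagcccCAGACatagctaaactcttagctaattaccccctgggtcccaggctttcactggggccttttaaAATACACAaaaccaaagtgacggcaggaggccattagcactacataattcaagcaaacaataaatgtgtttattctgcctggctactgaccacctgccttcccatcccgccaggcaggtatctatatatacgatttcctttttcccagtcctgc
TDGF1, chr3:46574285-46574534, plus strand: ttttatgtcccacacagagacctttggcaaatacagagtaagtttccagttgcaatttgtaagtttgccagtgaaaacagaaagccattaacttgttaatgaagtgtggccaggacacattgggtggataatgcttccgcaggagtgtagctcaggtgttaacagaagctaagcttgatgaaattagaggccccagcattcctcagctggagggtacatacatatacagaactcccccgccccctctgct
TDGF1, chr3:46577538-46577787, plus strand: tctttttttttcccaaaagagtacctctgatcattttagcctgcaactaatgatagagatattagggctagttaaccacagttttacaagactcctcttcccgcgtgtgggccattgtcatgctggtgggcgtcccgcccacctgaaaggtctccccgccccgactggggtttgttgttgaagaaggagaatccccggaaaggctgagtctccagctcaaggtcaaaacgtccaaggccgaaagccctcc
GDF3, chr12:7695776-7696025, minus strand: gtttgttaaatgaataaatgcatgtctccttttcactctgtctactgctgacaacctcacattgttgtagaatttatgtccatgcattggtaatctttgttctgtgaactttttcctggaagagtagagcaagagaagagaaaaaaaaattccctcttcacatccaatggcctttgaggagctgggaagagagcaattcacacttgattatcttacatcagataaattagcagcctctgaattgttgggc

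Of these 4 windows, that of CER1 held matches, to CAGAC at position -218 and to AATACACA at position -154 from the gene start, which do not overlap. Among 35116 promoter windows of the same length, 0.67% held AATACACA, 0.71% held AATCCACA and 38.0% held CAGAC. The windows of TDGF1 and GDF3 held none of the 3 sequences. Of the members not shown, NODAL, which was nearly flat, held CAGAC at position -237, and ACVR2A and ACVR2B held no match. Windows of LEFTY1, LEFTY2 and FOXH1 were not examined, so matches in them are unknown. A match is a description of the letters in the window and not a measured binding site.

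The replicate numbers differed more than the treatments for several members. TDGF1 and FOXH1 were lower on the replicate 2 arrays, CER1 came just short of the threshold, and ACVR2A and LEFTY1 were higher without passing. By limma with the treatment as a second term and adjustment over all genes, 2 of 9 members had an adjusted p under 0.05, beside 3.5% of all genes, and both were lower, beside 1.21% of all genes, while 0 members and 2.3% of all genes passed in the higher direction. Members lower on average in replicate 2 numbered 7 of 9, beside 50.6% of all genes. Both replicate 2 arrays lay below both replicate 1 arrays for 4 members, beside 25.9% of all genes, and above them for 2, beside 25.1%.

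TDGF1 averaged 6.78 on the replicate 2 arrays and 8.23 on the replicate 1 arrays. The difference was -1.45 ± 0.15 (SE), or 2.73-fold, with an adjusted p of 0.00547, and it was -1.19 among TBBD arrays and -1.71 among DMSO arrays. With no treatment term its adjusted p was 0.0544. FOXH1 averaged 6.03 on the replicate 2 arrays and 6.74 on the replicate 1 arrays, a difference of -0.71 ± 0.13 (SE) with an adjusted p of 0.0336. Of its 6 probesets 5 were lower in replicate 2. Its call ended with the median over probesets, where the difference was -0.27 and the adjusted p 0.472. CER1 averaged 6.49 on the replicate 2 arrays and 7.57 on the replicate 1 arrays, a difference of -1.07 ± 0.22 (SE) with an adjusted p of 0.0508. All 4 of its probesets were lower in replicate 2. The gap was -0.57 among TBBD arrays and -1.57 among DMSO arrays. Over the alternatives with a test its adjusted p ran from 0.0226, with genes on at least 3 probesets, to 0.187, with no treatment term, and was under the threshold in 4 of them.

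ACVR2A averaged 7.26 on the replicate 2 arrays and 6.81 on the replicate 1 arrays, a difference of 0.45 ± 0.12 (SE) with an adjusted p of 0.0917. All 14 of its probesets were higher in replicate 2, by between 0.19 and 0.99, and the gap was 0.49 among TBBD arrays and 0.42 among DMSO arrays. LEFTY1 averaged 7.04 on the replicate 2 arrays and 6.45 on the replicate 1 arrays, a difference of 0.59 ± 0.14 (SE) with an adjusted p of 0.0835. Without probeset 7924665 that difference was 0.042, an alternative chosen after seeing the data. LEFTY2 at -0.24, ACVR2B at -0.23, GDF3 at -0.017 and NODAL at -0.0056 did not pass. GDF3 and NODAL thus had nearly equal means in the numbers, with 95% confidence intervals from -0.33 to 0.30 and from -0.28 to 0.27.

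**Figure D4:**
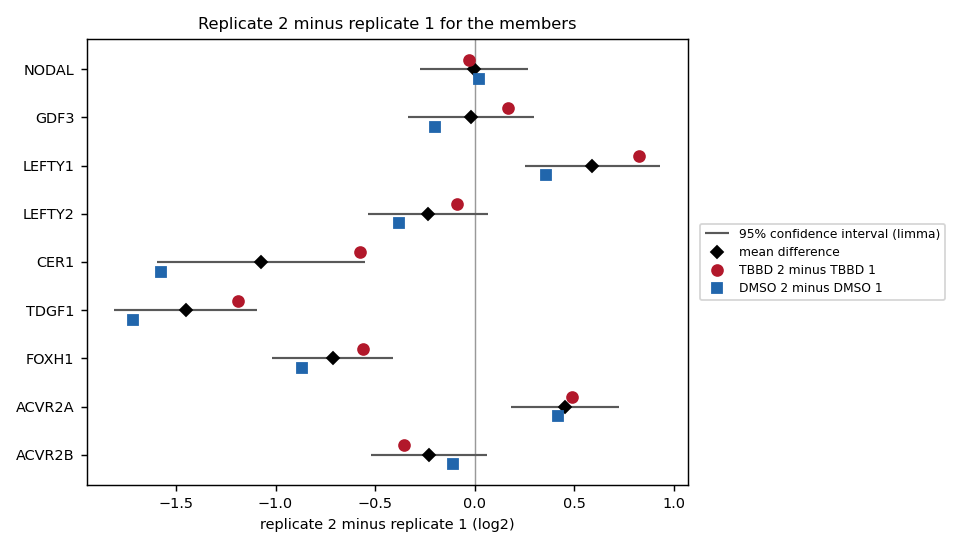
Replicate 2 minus replicate 1 log2 difference (x axis) for each member (y axis), as the mean with its 95% confidence interval from limma, and among TBBD arrays (circles) and DMSO arrays (squares). TDGF1 stands lowest, at -1.45, with both treatments below -1, and ACVR2A shows nearly equal gaps of 0.49 and 0.42. The intervals come from the fit with the treatment as a second term.

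Other markers moved with the replicate number. Of 9 pluripotent cell markers 8 were lower in replicate 2, beside 50.6% of all genes, with a median of -0.67 and 4 past the adjusted threshold. SOX2 went the other way, higher by 1.29, and also passed the threshold (limma adjusted p = 0.00343). Mean levels of that list were 6.92 with TBBD and 7.21 with DMSO in replicate 2, and 7.33 with TBBD and 7.47 with DMSO in replicate 1. All 9 visceral endoderm and hepatic markers were higher in replicate 2, with a median of 1.55 and 6 past the threshold, as were all 9 mesenchyme and matrix markers, with a median of 1.61 and 7 past it. Endothelial markers were higher in 6 of 6 cases, with 5 past the threshold. The part of these markers in the differences of TDGF1, FOXH1 and CER1 was not tested, and replicate number cannot be told apart from whatever else differed between the embryoid bodies that carry it.

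Of 50 further genes listed by role, 46 were measured. With TBBD 29 of them were lower and 17 higher, beside 51.2% of all genes that were lower. Their median difference was -0.011 on the log2 scale, and limma gave 0 past the adjusted threshold and 0 at an unadjusted p under 0.05. Both TBBD arrays lay below both DMSO arrays for 4 of the 46 and above them for 5, beside 10.4% and 10.5% of all genes. Centred arrays gave 23 lower and the median over probesets gave 20. The type I receptor genes ACVR1B at 0.021 ± 0.11 (SE), ACVR1C at 0.010 ± 0.20, ACVR1 at -0.0094 ± 0.17 and TGFBR1 at -0.06 ± 0.19 and the transducer genes SMAD2 at 0.04 ± 0.13, SMAD3 at 0.04 ± 0.13 and SMAD4 at -0.04 ± 0.12 all stood near 0, and the sign of ACVR1 flipped when arrays were centred. INHBA, which encodes an activin subunit, stood at -0.010 ± 0.29 and at 0.00054 when arrays were centred.

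Transcription factor genes that act downstream of Nodal signalling in the primitive streak stood lowest in that list. EOMES had signals of 6.02 and 5.92 with TBBD, against 7.38 and 6.23 with DMSO, a difference of -0.83 ± 0.38 (SE, n = 2). Both TBBD arrays lay below both DMSO arrays, as for 10.4% of all genes. MIXL1, measured on 2 probesets, had signals of 6.37 and 6.01 with TBBD, against 7.85 and 6.03 with DMSO, a difference of -0.75 ± 0.59 (SE, n = 2). TBXT, which encodes brachyury, had signals of 6.89 and 6.42 with TBBD, against 7.87 and 6.74 with DMSO, a difference of -0.65 ± 0.40 (SE, n = 2). In all 3, as in CER1 and TDGF1, DMSO replicate 1 was the highest array. Without it the difference was -0.25 for EOMES, 0.15 for MIXL1 and -0.085 for TBXT, and without DMSO replicate 2 it was -1.40 for EOMES, -1.66 for MIXL1 and -1.22 for TBXT. For EOMES the median over probesets gave -0.44. Without TBBD replicate 2 that of TBXT was -0.42. Of the 10 downstream genes measured, 9 were lower with TBBD in replicate 1, with a median of -0.51. In replicate 2 this held for 5, with a median of 0.043. Over all 18640 genes, 10204 were lower in replicate 1 and 8699 in replicate 2. LHX1 at -0.29, SOX17 at -0.29, OTX2 at -0.20, NANOG at -0.17 and GSC at -0.11 had smaller differences, and FOXA2 at 0.18 and HHEX at 0.13 lay higher with TBBD. Markers of the primitive streak, some of them the same genes, were lower in 7 of 7 cases, beside 51.2% of all genes. Their mean levels were 6.29 and 6.19 with TBBD and 7.19 and 6.30 with DMSO. The part of these markers in the values of the members was not tested.

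Between the replicate numbers, 4 of the 46 genes passed limma's adjusted threshold, beside 3.5% of all genes. Of these, 3 were higher in replicate 2, beside 2.3% of all genes, and 1 was lower, beside 1.21%. TGFBR3, which encodes the TGF-beta coreceptor betaglycan, rose by 1.76 ± 0.14 (SE) (adjusted p = 0.00226). It stood at 8.64 with TBBD and 8.24 with DMSO in replicate 2, and at 6.64 with TBBD and 6.71 with DMSO in replicate 1. PCSK5, a proprotein convertase gene, was higher by 0.99 ± 0.13 (adjusted p = 0.0110). FST, which encodes the activin-binding protein follistatin, was higher by 0.73 ± 0.13 (adjusted p = 0.0297), and its call ended with the median over probesets (adjusted p = 0.0947). SMAD6, an inhibitory SMAD gene, was lower by -1.06 ± 0.14 (adjusted p = 0.0134). At an unadjusted p under 0.05 there were 16 of the 46, beside 18.2% of all genes. Besides these 4, they were the higher INHBA at 0.54, HHEX at 0.37 and TGFBR1 at 0.33 and the lower MIXL1 at -1.09, TBXT at -0.80, EOMES at -0.62, INHBE at -0.53, SMAD7 at -0.42, ACVR1C at -0.36, SKIL at -0.36, ACVR1 at -0.29 and PMEPA1 at -0.28.

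**Figure D5:**
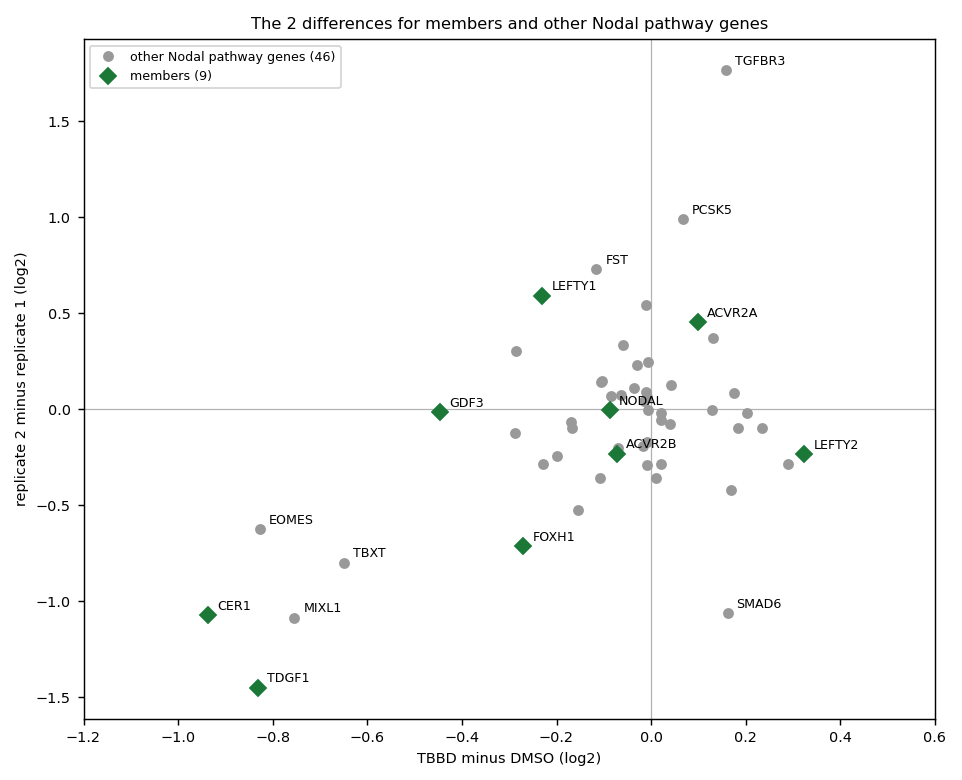
TBBD minus DMSO (x axis) and replicate 2 minus replicate 1 (y axis), both as log2 differences, for the 9 members (diamonds) and 46 other Nodal pathway genes (circles), with the members and the most distant genes named. CER1, TDGF1, EOMES, TBXT and MIXL1 lie low on both axes, whereas TGFBR3 and PCSK5 differ by number and stand near 0 by treatment.

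Genes with a profile like that of TDGF1, the member with the widest range, were few, which a distance not scaled to range favours. Likeness was the Euclidean distance over the 4 arrays after each gene was centred on its mean, among 16818 genes with at least 3 probesets, and 5 genes, members included, lay within 0.5. The nearest outside the members were LGR5, which encodes a Wnt-potentiating receptor, at a distance of 0.23, GAL, which encodes the neuropeptide galanin, at 0.28, WNT8A, which encodes a Wnt ligand, at 0.28, the prostaglandin transporter gene SLCO2A1 at 0.48 and BMPER, which encodes a BMP-binding protein, at 0.58. LGR5 had signals of 7.50 and 6.31 with TBBD, against 8.42 and 7.04 with DMSO, the same order of arrays as in TDGF1. For NODAL the measure tells little, since 1168 genes lay within 0.1, and its nearest were PGBD5, NRIP2, IL2RA, ZNF697 and DUS4L, at between 0.010 and 0.016.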

How the data were processed

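The authors' deposited table held log2 RMA signals for 247312 probesets on 4 arrays. RMA is named in the submitters' processing notes, without version or settings. That the scale is log2 was inferred from array maxima of 13.7 to 13.8. The 277 probesets with a placeholder value near 0 were left out. Of the symbols on probesets with 1 gene symbol in the platform annotation, 16056 matched RefSeq as they stood, 2528 were brought up to date and 99 stayed as given. The 218927 named probesets used were averaged per gene and array.

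Sample titles gave the groups and replicate numbers. TBBD arrays were compared with DMSO by limma with the group as the only term, and replicate 2 with replicate 1 by limma with the treatment as a second term, two-sided, adjusted by Benjamini-Hochberg over 18640 genes at a threshold of 0.05. Both fits were also run on simulated data with noise independent between arrays. In the real arrays, deviations correlated at 0.566 within a number, so the simulation does not show how the treatment fit behaves here. The median half-width of a gene's 95% confidence interval was 0.36 for treatment and 0.28 for number on the log2 scale, and the number of arrays limits the precision.

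All members were named. Of the other pathway genes, the type I receptors, the SMAD transducers and the downstream transcription factors were named in every case, as were genes at an unadjusted p under 0.05 in either fit. For NODAL and the member with the widest range, the 5 nearest profiles were named. The probesets, BAMBI, DAND5, SKI, TGIF1 and TGIF2, and the markers named singly were picked with their values in view. The members and lists were chosen with earlier results of these data known. Alternatives were quantile normalization again, median centring, the median over probesets, leaving out dim genes or genes on under 3 probesets, an intensity trend, a robust prior, a replicate block, no treatment term, single probesets and each array left out. No member had a probeset with several symbols, so adding such probesets would leave the members' own signals unchanged. Its effect on other genes and on adjusted p-values was not tested. The software was limma 3.58.1 in R 4.3.3, and pandas 2.3.3, numpy 2.4.6 and matplotlib 3.10.9 in Python 3.11.15.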

Additional observations from a re-analysis of the deposited data

How the results depend on the processing

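The TBBD versus DMSO call stayed at 0 genes past the adjusted limma threshold under every alternative run, and 139 genes had an unadjusted p under 0.05. The fit with replicate number as a block also gave 0 genes, and 496 genes (2.66%) had an unadjusted p under 0.05. Under that block TDGF1 stood at -0.83 ± 0.15 (SE, unadjusted p = 0.000918), CER1 at -0.94 ± 0.22 (unadjusted p = 0.00378), GDF3 had an unadjusted p of 0.0126 and LEFTY2 of 0.0378, so 4 members had an unadjusted p under 0.05 under the block, against 1 without it. Of the other pathway genes 3 did with the block, against 0 without it, namely EOMES (limma unadjusted p = 0.00848), TBXT (limma unadjusted p = 0.00630) and MIXL1 (limma unadjusted p = 0.0392). All 7 had an adjusted p of 0.99971. Across genes, deviations from the group means correlated at 0.566 between arrays of the same number, but the labels do not say that a number marks a shared culture, and there are only 2 numbers. With each array left out in turn, TBBD minus DMSO crossed 0 and ran for LEFTY1 from -0.64 to 0.18, TDGF1 from -1.69 to 0.025, FOXH1 from -0.70 to 0.16, ACVR2A from -0.15 to 0.34, ACVR2B from -0.25 to 0.10 and ACVR1B from -0.022 to 0.064. The range was, for ACVR1C from -0.23 to 0.25, ACVR1 from -0.17 to 0.15, TGFBR1 from -0.25 to 0.13, SMAD2 from -0.074 to 0.15, SMAD3 from -0.056 to 0.14 and SMAD4 from -0.092 to 0.020. Further ranges were, for SMAD7 from -0.092 to 0.43, SMAD6 from -0.49 to 0.81, SKIL from -0.30 to 0.085, INHBA from -0.42 to 0.40, INHBE from -0.45 to 0.14 and FST from -0.55 to 0.32. It ran also for TGFBR3 from -0.84 to 1.16, PCSK5 from -0.50 to 0.63, GSC from -0.30 to 0.084, MIXL1 from -1.66 to 0.15, SOX17 from -0.65 to 0.083 and HHEX from -0.16 to 0.42. With the median over probesets, TBBD minus DMSO turned to 0.12 for NODAL, 0.035 for LEFTY1, 0.058 for ACVR1, 0.085 for TGFBR1, 0.026 for SMAD4, 0.042 for SKIL and 0.035 for INHBA, and 5 members were lower. With arrays centred it was 0.0013 for ACVR1 and 0.00054 for INHBA. Replicate 2 minus replicate 1 turned, with the median over probesets, to 0.15 for NODAL, 0.042 for GDF3 and -0.0078 for LEFTY1. Between the numbers 653 genes and 2 members passed with the treatment term and 1001 genes and 1 member without it. At an unadjusted p under 0.05 the fit with the treatment term gave 3390 genes. With an array left out, the replicate numbers are unbalanced between the groups, so part of a gene's gap between numbers enters its treatment difference. TDGF1, FOXH1, TGFBR1, SMAD4, SKIL, INHBE and MIXL1 crossed 0 there though each was lower with TBBD within both numbers. ACVR2A and SMAD7 crossed 0 though each was higher within both. The other genes listed above as crossing 0 with an array left out differed in sign between the numbers. The cause of the other changes was not tested. Leaving out an array leaves the replicate number fit no residual degrees of freedom, so it gave values with no test there, and adding probesets with several symbols was not run, since no member has any. With 2 arrays a group, the median interval half-width by treatment was 0.36, and NODAL lies in the range of dim signals.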

Other observations

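BAMBI, which encodes a pseudoreceptor that dampens TGF-beta signals, lay higher with TBBD within each number, by 0.37 in replicate 1 and 0.10 in replicate 2. All 5 corepressor genes measured had lower means with TBBD, with a median of -0.070, beside 51.2% of all genes that were lower. Within replicate 2 only SKI, SKIL and TGIF1 were lower, TGIF2 averaged -0.0057, and SKIL was 0.042 with the median over probesets. Of the 5, 0 passed limma's adjusted threshold or an unadjusted p under 0.05. DAND5, a Cerberus family antagonist gene, differed by -0.22 within replicate 1 and by 0.79 within replicate 2. Its signals of 5.15 and 5.37 with TBBD and 5.37 and 4.58 with DMSO lay below the olfactory 95th percentile.

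On single probesets, 33 of the 53 member probesets were lower with TBBD, a count with no background, since the share over all probesets was not computed. Limma gave 0 with an adjusted p under 0.05 and 3 with an unadjusted p under 0.05, against 0 and 5589 of all 218927 probesets. The 3 were probeset 7960830 of GDF3 at -0.70, probeset 7924666 of LEFTY1 at -0.89 and probeset 7924684 of LEFTY2 at 0.74. The LEFTY1 probeset was dim, with a mean level of 4.40. Between replicate numbers 0 member probesets had an adjusted p under 0.05 and 16 an unadjusted p under 0.05, against 148 and 25825 of all probesets. Trophoblast and amnion-like markers had higher means with TBBD in 5 of 6 cases, with a median of 0.19, beside 9101 of 18640 genes. They were higher in 5 of 6 in replicate 1 and in 2 of 6 in replicate 2. Neural markers had higher means in 3 of 6 cases, with a median of 0.017. In both lists 0 passed limma's adjusted threshold, and at an unadjusted p under 0.05 there were 0 and 1.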
